A study of Mus musculus with 10 samples.

Results

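The genes described here are 35 genes of glycolysis and of the transcriptional response to low oxygen, read in mouse acute lymphoblastic leukaemia cells. They were listed by name from these textbook pathways, with earlier results of these data known. For each gene the probe set brightest on average over all 10 arrays was read. Of the 35, 33 were measured among 18194 genes, and Gpi1 and Eno1 were not analysed here. The members fall into 16 glycolytic enzymes (14 measured), 8 carriers and regulators of glycolytic flux (all measured) and 11 further targets of hypoxia-inducible factor, HIF (all measured).

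The leukaemia, labelled NSTY ALL, was of C57BL/6 origin, carried the human p210 bcr/abl fusion and had a deletion of the Ink4a/Arf locus. All 10 recipients were C57BL/6 mice given total body irradiation and 5-fluorouracil, then infused with leukaemia mixed into donor marrow and spleen cells. In the syngeneic group (5 animals) the donor was C57BL/6, and in the allogeneic group (5 animals) it was C3.SW. Leukaemia was flow sorted and moved on every 2 to 3 weeks, and RNA was prepared after 3 serial transplants from cells sorted on green fluorescent protein from bone marrow. The age and sex of the animals are not given in the labels. Both groups share 1 leukaemia, so a difference describes this leukaemia and not the disease in general. The labels call each sample a separate animal without saying which earlier recipient supplied its cells; the titles of allogeneic animals 4 and 5 begin with a common number of unexplained meaning, and every p-value measures only the spread between these samples.

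Glycolysis splits glucose into pyruvate in the cytosol, and lactate dehydrogenase turns pyruvate into lactate, which regenerates the NAD that the pathway needs. When oxygen is scarce, the prolyl hydroxylases of the Egln family stop marking HIF-1 alpha for destruction, and the stabilised factor raises glucose carriers, most glycolytic enzymes, pyruvate dehydrogenase kinases and genes of vessel growth, mitophagy and collagen processing. Bone marrow is a tissue of low oxygen, and proliferating lymphoblasts are known for a high rate of glycolysis.

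HIF binds DNA at a short core, ACGTG or GCGTG, and the members were compared with other genes for these letters. RefSeq promoters (GRCm38.p6) were available for 33 of the 35 members, all but Slc2a3 and Ndrg1, as 48 windows of 300 bases that run from 250 bases before an annotated start to 50 after it. ACGTG on either strand was present in 54.2% of these 48 windows and in 19.6% of all 32851 windows. By role the share was 42.3% (11 of 26 windows) for glycolytic enzymes, 66.7% (6 of 9) for carriers and regulators and 69.2% (9 of 13) for the other HIF targets. GCGTG was present in 60.4% of the members' windows and in 32.4% of all windows. Windows were not matched for base composition, and several windows belong to the same gene. The 2 motifs were counted apart and can overlap each other, and CACGTG, which reads as ACGTG on both strands, counted as a single window here.

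The 250 bases before the start are printed for 4 genes that the expression results return to, with ACGTG or its reverse complement CACGT in capitals. Vegfa, a member with a lower mean in allogeneic samples, is not printed, and its annotated windows held 1 and 0 ACGTG. Bnip3 and Pdk3 are members with higher means in allogeneic samples, but neither passed (adjusted p = 0.195 and 0.248 by limma). Ldha and Ldhb encode alternative subunits of lactate dehydrogenase. Each is written 5' to 3' on the strand of the gene. Bnip3 lies on the minus strand at chr7:138909507-138909756, Pdk3 on the minus strand at chrX:93832151-93832400, Ldha on the plus strand at chr7:46845554-46845803 and Ldhb on the minus strand at chr6:142507958-142508207.
Bnip3: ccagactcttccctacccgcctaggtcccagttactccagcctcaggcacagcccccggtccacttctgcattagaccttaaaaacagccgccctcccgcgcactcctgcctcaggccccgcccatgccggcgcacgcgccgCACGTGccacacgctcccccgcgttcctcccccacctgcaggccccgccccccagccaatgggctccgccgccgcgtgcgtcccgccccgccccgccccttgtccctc
Pdk3: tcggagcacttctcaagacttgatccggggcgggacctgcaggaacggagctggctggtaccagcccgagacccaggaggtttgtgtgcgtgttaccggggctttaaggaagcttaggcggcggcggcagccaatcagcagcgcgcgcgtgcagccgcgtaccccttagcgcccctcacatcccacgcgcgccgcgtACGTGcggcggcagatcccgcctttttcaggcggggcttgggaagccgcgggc
Ldha: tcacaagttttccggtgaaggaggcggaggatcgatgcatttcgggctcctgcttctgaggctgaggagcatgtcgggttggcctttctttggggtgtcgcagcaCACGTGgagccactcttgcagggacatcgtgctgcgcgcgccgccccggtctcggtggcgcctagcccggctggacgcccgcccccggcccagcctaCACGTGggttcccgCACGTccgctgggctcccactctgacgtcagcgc
Ldhb: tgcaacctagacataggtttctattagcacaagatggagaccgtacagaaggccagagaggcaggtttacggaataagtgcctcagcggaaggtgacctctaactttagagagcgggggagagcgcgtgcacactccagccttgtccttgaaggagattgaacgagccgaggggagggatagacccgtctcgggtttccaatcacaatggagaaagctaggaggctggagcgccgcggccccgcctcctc
Bnip3 held 1 CACGTG and Pdk3 a single ACGTG. The printed stretch of Ldha held CACGTG at 2 places and a further CACGT, and this stretch of Ldhb held neither form. Another annotated start of Ldha, whose 250 bases lie at chr7:46846832-46847081, is not printed and held neither form. The other core, GCGTG or its reverse complement, is not marked. It was present in the printed stretches of Bnip3, Pdk3 and Ldhb and not in the printed stretch of Ldha.

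Each array measured between 11225 and 13095 genes above a background limit set from bacterial control probe sets. Of the 33 members, 29 exceeded the limit on all 10 arrays. Slc16a3 did so on 9, Pfkfb4 on 7, and Eno2 and P4ha2 on none. The 3' to 5' ratio of Gapdh, a sign of RNA integrity, ran from 1.46 to 1.56 among syngeneic animals and from 1.38 to 1.59 among allogeneic ones. Allogeneic arrays 1, 3 and 4 had a raised low end, with a lower quartile of deposited intensity of 18.7 to 19.5 against 13.8 to 14.4 on the other 7. The B-lymphoid progenitor markers expected in this leukaemia, such as Vpreb1 (13.64 and 13.68 on the log2 scale), were well above background on 8 of 9 measured genes in all 10 samples.

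None of the 33 members was called higher or lower in leukaemia from allogeneic recipients. With limma and adjustment over all 18194 genes, 0 members passed at an adjusted p under 0.05, where 0.583% of all genes did (106 genes, 0.506% higher and 0.0769% lower in allogeneic samples), and the lowest adjusted p was 0.195, for Bnip3. At an unadjusted p under 0.05 there were 4 members, Bnip3, Pdk3, Vegfa and Ldhb, and 16.9% of all genes. No member had groups without overlap, against 4.83% of all genes. The median difference, allogeneic minus syngeneic on the log2 scale, was 0.01 over the members and 0.01 over all genes, and its median absolute size was 0.19 and 0.25. For 28 of 33 members (84.8%) the 95% interval of the difference lay inside a 2-fold change either way, as it did for 63.2% of all genes. Among those above background on every array the shares were 96.6% of members and 86.1% of genes. The 5 members with a wider interval were Aldoc, Eno2, Slc16a3, Pfkfb4 and P4ha2. In sorted bulk samples such as these, fewer cells of a type and less RNA per cell cannot be told apart.

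**Figure D1:**
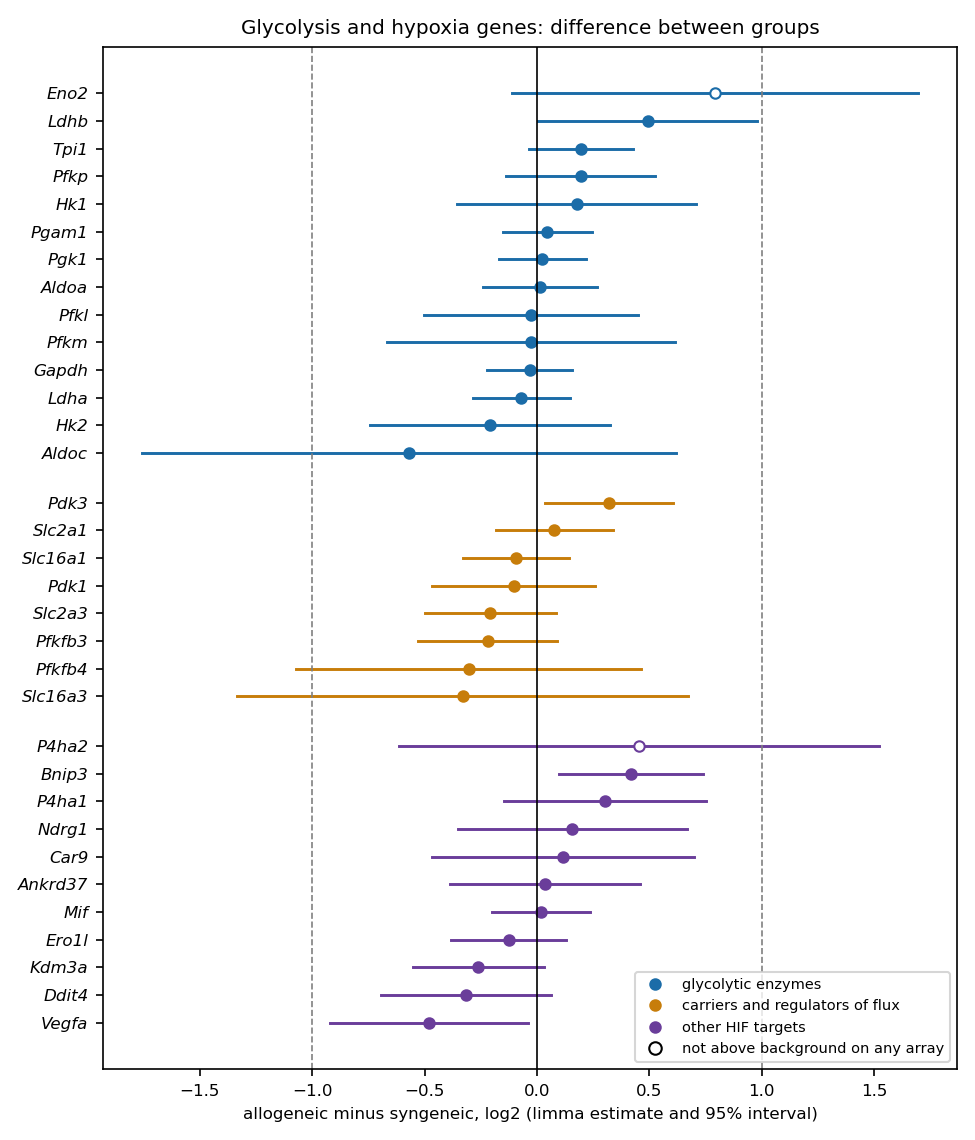
The difference of each of the 33 measured members, allogeneic minus syngeneic on the log2 scale (x axis), with its 95% interval from limma (lines), grouped by role; dashed lines mark a 2-fold change. Open points are Eno2 and P4ha2, which were not above background on any array, and the widest interval is that of Aldoc, from -1.76 to 0.62.

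The glycolytic enzymes had a median difference of 0.02, with 8 of 14 positive and 6 negative, and none passed. Of the positive ones, Aldoa, Pgk1 and Pgam1 were negative without quantile normalization. Gapdh, which oxidises glyceraldehyde-3-phosphate, had values of 13.76, 13.77, 13.76, 13.74 and 13.78 in syngeneic animals 1 to 5 and 13.71, 13.72, 13.77, 13.68 and 13.77 in allogeneic animals 1 to 5. Its difference was -0.03 (95% interval -0.22 to 0.16). Pgk1, the first ATP-forming kinase of the pathway, differed by 0.02 (-0.17 to 0.22), Pgam1, a mutase, by 0.05 (-0.15 to 0.24) and Ldha by -0.07 (-0.28 to 0.15). Aldoa, the main aldolase of most tissues, differed by 0.01 (-0.24 to 0.27), and its other 4 probe sets ran from -0.06 to 0.66 (lowest adjusted p = 0.221 over all probe sets). The intervals of these 5 genes, at the probe set read for each, all lay between -0.28 and 0.27. The differences of the 3 probe sets of Pgk1 ran from 0.02 to 0.20, and those of the 3 of Gapdh from -0.06 to 0.02.

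Ldhb, the lactate dehydrogenase subunit typical of heart, had the smallest unadjusted p of the enzymes. Its values were 6.33, 6.22, 6.27, 6.13 and 6.68 in the syngeneic animals and 6.47, 7.11, 6.31, 6.76 and 7.42 in the allogeneic animals. Allogeneic animals 2, 4 and 5 lay above every syngeneic animal, while 1 and 3 lay within the syngeneic range. The difference was 0.49 (SE 0.22, adjusted p = 0.290 by limma), a ratio of 1.41, and all 4 probe sets of Ldhb had a positive difference. Eno2, the neuronal enolase, had values of 2.46, 3.01, 2.90, 2.70 and 2.83 in syngeneic and 2.22, 4.41, 2.95, 3.86 and 4.42 in allogeneic animals, all below background, so no fold is given. When allogeneic animals 1, 3 and 4 were left out, Ldhb passed with a difference of 0.96 (adjusted p = 0.0476) over 2 allogeneic animals. The Eno2 probe set also passed there, but below background it gives no measured difference. In that setting 3.57% of all genes passed.

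Tpi1, the triose phosphate isomerase, was more even within groups. Its values were 12.44, 12.47, 12.53, 12.50 and 12.53 in syngeneic and 12.43, 12.80, 12.71, 12.72 and 12.80 in allogeneic animals. Allogeneic animals 2 to 5 stood above all syngeneic animals and animal 1 below them. The difference was 0.20 (SE 0.10, adjusted p = 0.376), and the other 2 probe sets of Tpi1 differed by 0.35 and 0.41 (adjusted p = 0.268 and 0.195 over all probe sets).

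The phosphofructokinases, which commit the sugar to glycolysis, showed no shared direction. Pfkp, the platelet-type isoform, had values of 11.97, 12.45, 12.50, 12.22 and 12.21 in syngeneic and 12.54, 12.51, 12.48, 12.69 and 12.10 in allogeneic animals, a difference of 0.19 (SE 0.15, adjusted p = 0.538). The groups overlapped, with allogeneic animal 5 below 4 of the syngeneic animals. The liver isoform Pfkl differed by -0.03 (SE 0.21) and the muscle isoform Pfkm by -0.03 (SE 0.29). Signs depended on the probe set, with 3 of Pfkp from -0.31 to 0.47 and 3 of Pfkl from -0.03 to 0.19. Of the hexokinases, which trap glucose in the cell, Hk1 differed by 0.18 (SE 0.24) and Hk2, the isoform induced by HIF, by -0.21 (SE 0.24). The other probe set of Hk1 differed by -0.33.

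Among the 8 carriers and regulators, 2 differences were positive and 6 negative, with a median of -0.16, and none passed. Pdk3, one of the kinases that switch off pyruvate dehydrogenase, had values of 9.16, 9.36, 9.43, 9.38 and 9.32 in syngeneic and 9.56, 9.87, 9.34, 9.65 and 9.84 in allogeneic animals. Of the allogeneic animals, 4 lay above every syngeneic animal and animal 3 lay among them. The difference was 0.32 (SE 0.13, 95% interval 0.04 to 0.60, adjusted p = 0.248).

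None of the 4 glucose and lactate carriers passed. Slc2a1, which encodes the ubiquitous glucose carrier GLUT1, differed by 0.08 (95% interval -0.18 to 0.34). Slc2a3, which encodes the high-affinity carrier GLUT3, had values of 11.56, 11.39, 11.63, 11.48 and 11.46 in syngeneic and 11.38, 11.33, 10.89, 11.48 and 11.41 in allogeneic animals, a difference of -0.21 (SE 0.13, adjusted p = 0.450). Allogeneic animal 3 was the lowest of all 10. The lactate carrier Slc16a1 (MCT1) had 12.79, 12.83, 12.88, 12.89 and 12.88 in syngeneic and 12.87, 12.76, 12.79, 12.87 and 12.50 in allogeneic animals, a difference of -0.09 (SE 0.11, adjusted p = 0.689). Allogeneic animal 5 was the lowest. The HIF-induced lactate exporter Slc16a3 (MCT4) was near background, at 4.90 to 5.80 in syngeneic and 3.34 to 6.26 in allogeneic animals, and its interval of -1.34 to 0.67 included a 2-fold lower level.

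Pfkfb3, whose product makes the fructose-2,6-bisphosphate that activates phosphofructokinase, had values of 10.62, 10.75, 10.80, 10.38 and 10.79 in syngeneic and 10.23, 10.64, 10.71, 10.38 and 10.29 in allogeneic animals. The groups overlapped, and the difference was -0.22 (SE 0.14, adjusted p = 0.452). Another probe set of Pfkfb3 differed by 0.38, so its sign depended on the probe set. Pfkfb4 differed by -0.30 (SE 0.34). Pdk1, the HIF-induced pyruvate dehydrogenase kinase, had values of 11.61, 11.37, 11.57, 11.64 and 11.58 in syngeneic and 11.48, 11.12, 11.55, 11.15 and 11.94 in allogeneic animals. It differed by -0.10 (SE 0.16, adjusted p = 0.789), with the allogeneic animals on both sides of the syngeneic range.

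Of the 11 HIF targets outside glycolysis, 7 differences were positive (Mif was negative without quantile normalization) and 4 negative, with a median of 0.04, and none passed. Bnip3 and Vegfa, both textbook HIF targets, had differences of opposite sign. Bnip3, a mitochondrial protein of mitophagy, had values of 11.20, 11.56, 11.77, 11.67 and 11.36 in syngeneic and 11.75, 12.12, 11.71, 12.04 and 12.02 in allogeneic animals. Allogeneic animals 2, 4 and 5 lay above all syngeneic animals, and 1 and 3 lay just under syngeneic animal 3. The difference was 0.42 (SE 0.14, 95% interval 0.10 to 0.74, adjusted p = 0.195), a ratio of 1.34.

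Vegfa, the vascular endothelial growth factor gene, had values of 11.08, 10.76, 11.25, 10.23 and 10.74 in syngeneic and 10.17, 10.53, 10.52, 10.40 and 10.04 in allogeneic animals. Syngeneic animal 4 lay among the allogeneic animals and the other 4 above them. The difference was -0.48 (SE 0.20, 95% interval -0.92 to -0.04, adjusted p = 0.257), a ratio of 0.716. A dimmer probe set of Vegfa differed by -0.06.

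Kdm3a, a histone demethylase that HIF induces, had values of 9.93, 10.14, 10.11, 10.29 and 10.09 in syngeneic and 10.11, 9.71, 10.06, 9.76 and 9.62 in allogeneic animals, a difference of -0.26 (SE 0.13, adjusted p = 0.346). Allogeneic animals 2, 4 and 5 were below all syngeneic animals, the same animals that were above them for Bnip3 and Ldhb. Ddit4, an inhibitor of mTORC1 signalling, had 12.51, 12.25, 12.34, 12.90 and 12.23 in syngeneic and 12.21, 11.91, 12.29, 11.85 and 12.40 in allogeneic animals, a difference of -0.32 (SE 0.17, adjusted p = 0.376). The groups overlapped.

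The remaining HIF targets above background differed by between -0.13 and 0.30. Mif, which encodes a cytokine, had values of 13.10, 13.19, 13.20, 13.13 and 13.20 in syngeneic and 12.98, 13.26, 13.19, 13.25 and 13.24 in allogeneic animals, a difference of 0.02 (95% interval -0.20 to 0.24). Allogeneic animal 1 was the lowest of the 10 at this probe set, and the differences of the 3 probe sets of Mif ran from 0.02 to 0.36. P4ha1, a collagen prolyl hydroxylase subunit, differed by 0.30 (SE 0.20), Ndrg1, a stress-responsive gene, by 0.16 (SE 0.23), Car9, a membrane carbonic anhydrase, by 0.12 (SE 0.26), Ankrd37 by 0.04 (SE 0.19) and Ero1l, an oxidase of the endoplasmic reticulum, by -0.13 (SE 0.12). P4ha2 was not above background in either group.

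**Figure D2:**
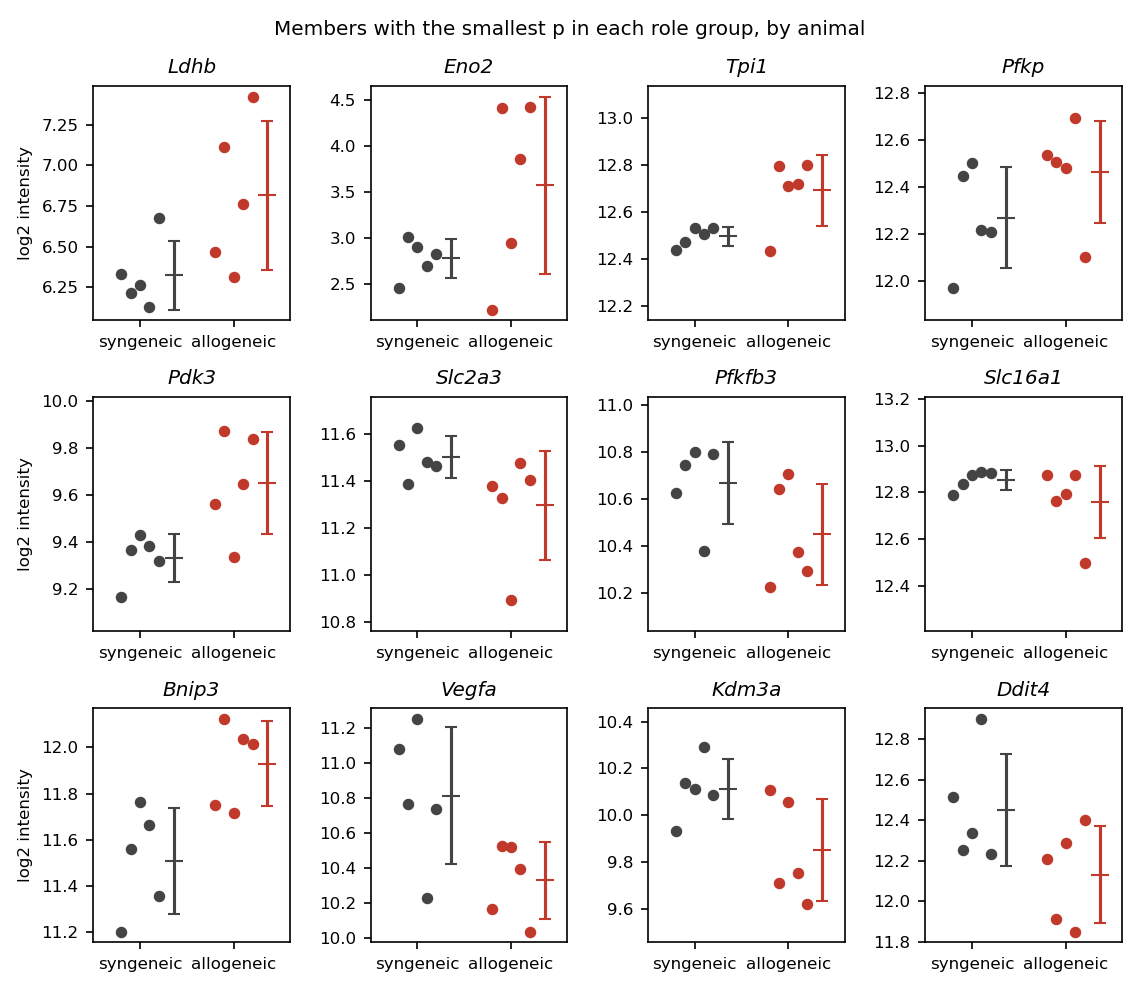
Log2 intensity (y axes, at least 1 unit tall) of the 4 members with the smallest p in each role group, with 1 point per animal in order 1 to 5 and the mean and SD of each group of 5 (bars). The groups overlap in all 12 panels, and Eno2 lies below background throughout.

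Spread among the allogeneic animals exceeded that among the syngeneic ones for most members, as for most genes. The allogeneic SD was the larger for 26 of 33 members (78.8%) and for 77.4% of all genes tested. Among those above background on every array the shares were 79.3% of members and 85.7% of genes. By role it was larger for 14 of 14 enzymes, 7 of 8 carriers and regulators and 5 of 11 other HIF targets. The widest was Aldoc, an aldolase of brain that HIF induces, with values of 9.37, 8.83, 9.10, 8.49 and 9.07 in syngeneic and 6.70, 8.68, 8.76, 7.75 and 10.12 in allogeneic animals. Animal 5 was above and animals 1 and 4 below every syngeneic sample, so that a difference of -0.57 (SE 0.53, adjusted p = 0.625) describes neither side. Its SD was 1.27 in the allogeneic and 0.33 in the syngeneic group, and its other probe set had the same order at the extremes, with 3.01 in animal 1 and 7.77 in animal 5.

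Which animals lay at the ends differed between the members of wide spread. Pfkm was 7.10 in allogeneic animal 1 and 8.77 in animal 5, against 7.91 to 8.40 in syngeneic animals. Ndrg1 was 10.95 and 11.18 in allogeneic animals 3 and 5 and 10.03 to 10.29 in the other 3, against 10.18 to 10.59 in syngeneic animals. Hk1 was lowest in allogeneic animal 4 (8.81) and highest in animal 3 (10.11).

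Allogeneic animal 1 had the lowest value of its group for 15 of the 33 members (45.5%, against 29.0% of all genes), among them 9 of the 14 enzymes. Allogeneic animal 5 had the highest for 12 members (36.4%, against 26.3% of all genes), 8 of them enzymes. The median deviation of the enzymes from their syngeneic means was -0.20 in allogeneic animal 1 and 0.24 in animal 5, and between -0.02 and 0.08 in the other 3. The same median over all genes was -0.06 and 0.11 in those 2 animals. Syngeneic animals lay between -0.06 and 0.04 for the enzymes. Without allogeneic animal 1, 0 of 33 members passed, where 3.5% of all genes did.

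**Figure D3:**
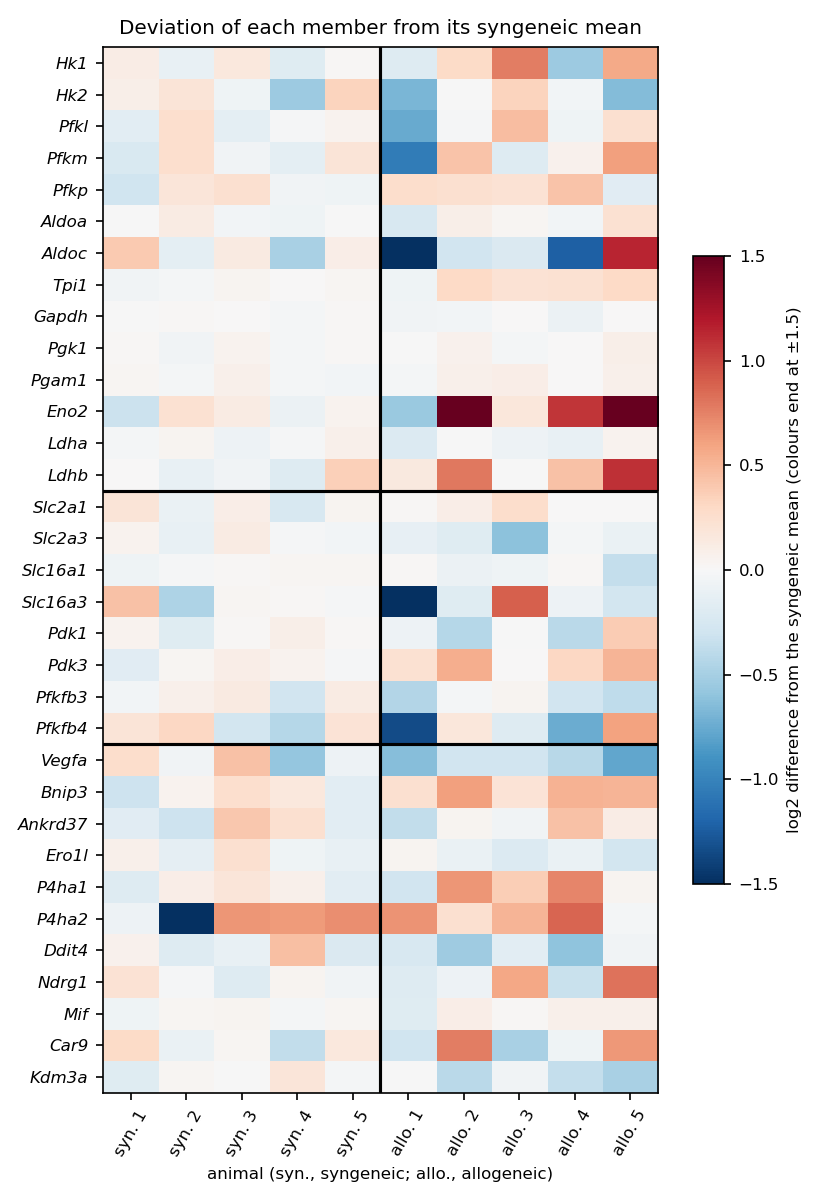
Log2 difference of every measured member from its syngeneic mean (red higher, blue lower) in each of the 10 animals (columns), with members in rows and black lines between the role groups and between syngeneic and allogeneic animals. Allogeneic columns hold stronger colours than syngeneic ones for many enzymes, with animal 1 mostly lower and animal 5 mostly higher, while Gapdh, Pgk1 and Pgam1 are pale throughout.

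**Figure D4:**
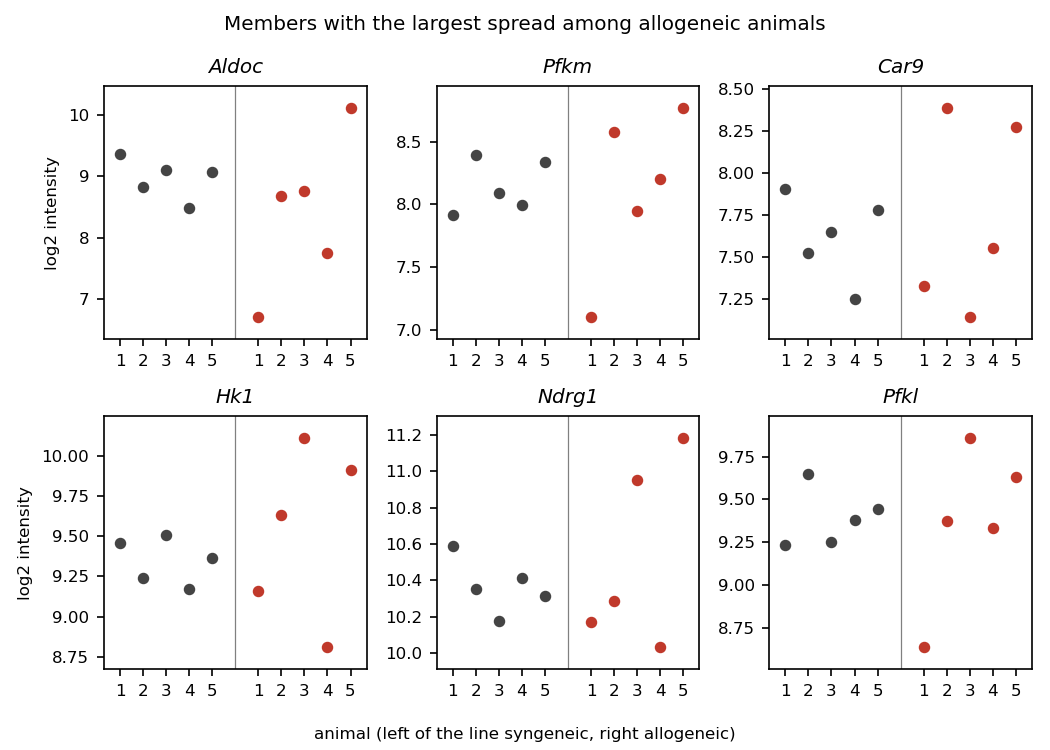
Log2 intensity (y axes) by animal (x axes) of the 6 members with the largest SD among allogeneic animals, of those above background on every array. Aldoc runs from 6.70 to 10.12 in allogeneic animals and from 8.49 to 9.37 in syngeneic ones.

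Where a member had several probe sets, they were compared singly. The 33 members had 72 probe sets, and 0 passed over 34948 probe sets fitted singly, where 0.323% of all did. Of 19 members with several probe sets, 10 had differences of a single sign and 9 had both signs. A further probe set of Pdk1, singled out after its values were seen, had 9.67, 9.20, 9.36, 9.34 and 9.48 in syngeneic and 9.77, 8.25, 8.26, 8.32 and 8.34 in allogeneic animals. Allogeneic animals 2 to 5 were below every other sample and animal 1 was the highest of all. Its difference was -0.82 (SE 0.29, adjusted p = 0.220), and without allogeneic animal 1 it was -1.12 (SE 0.12, adjusted p = 0.00684), the single probe set of a member to pass in that setting, where 3.55% of all did. The other 3 probe sets of Pdk1 differed by between -0.10 and 0.11.

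Of 14 genes of HIF control, 0 rose, 1 fell and 13 did not pass. Egln3, a prolyl hydroxylase that is itself a HIF target, was 6.40, 6.02, 8.34, 6.31 and 5.60 in syngeneic and 3.17, 3.01, 3.48, 3.25 and 3.70 in allogeneic animals, which were all below background, and it was at least 3.24-fold lower (adjusted p = 0.0120). Hif1a, which encodes the oxygen-regulated subunit of HIF-1, differed by -0.07 (95% interval -0.31 to 0.17), its partner Arnt by -0.05, and Vhl, whose product marks HIF for destruction, by 0.12 (-0.15 to 0.39). Egln1, the main oxygen sensor in most cells, differed by -0.21 (SE 0.12, adjusted p = 0.396).

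Of 19 measured further genes of glycolysis and glucose use, 0 passed. An unadjusted p under 0.05 was found for 3 of the 19, where 16.9% of all genes had it. The pyruvate dehydrogenase kinase gene Pdk4 had 4.79, 4.97, 5.01, 4.09 and 4.36 in syngeneic and 7.58, 5.74, 8.77, 7.88 and 4.72 in allogeneic animals, a difference of 2.29 (SE 0.69, adjusted p = 0.156). It exceeded background on 2 syngeneic and 4 allogeneic arrays. Pfkfb2 differed by -1.26 (SE 0.40, adjusted p = 0.172), and allogeneic animal 3 was the lowest at 4.65. Pkm, the pyruvate kinase gene, differed by 0.02 (95% interval -0.25 to 0.28). Of 21 measured further HIF targets, 0 passed. Tfrc, the transferrin receptor gene, had the smallest p there, with a difference of -0.36 (SE 0.12, adjusted p = 0.184), and Adm, the adrenomedullin gene, was above background on 0 syngeneic and 4 allogeneic arrays (adjusted p = 0.275).

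Markers of other cells that a marrow sort can hold were read beside these genes. The summed signal of 12 macrophage and monocyte markers was 13.12 to 13.46 on the log2 scale in syngeneic and 13.60 to 13.79 in allogeneic samples, with Cd14 and Itgam below background. That of 10 stroma and endothelium markers was 9.25 to 9.63 and 9.61 to 10.01, with Cxcl12 and Vwf below background. Granulocyte (10.93 to 12.24 and 10.43 to 12.91), erythroid (8.07 to 8.32 and 8.11 to 8.69) and T and NK cell markers (12.44 to 12.79 and 12.58 to 12.97) overlapped between the groups. The T and NK cell sum mostly follows Cd2, with means of 12.46 in syngeneic and 12.61 in allogeneic samples. Gzmb and Ncr1 of that list, and Hba-a1 of the erythroid list, were below background on every array. The macrophage and monocyte sums did not overlap, but a sum follows its brightest genes (Fcgr3 and Mpeg1), and 6 of the 12 markers were positive and 6 negative, with a median difference of 0.07. Of the 10 stroma and endothelium markers, only 2 were above background on every array. All 10 were positive, with a median difference of 0.38, where 9319 of all 18194 genes were positive. Their median deviation by animal ran from -0.12 to 0.12 in syngeneic animals and from 0.22 to 0.51 in allogeneic ones, without overlap, although none passed singly. The B-lymphoid progenitor sum was 15.75 to 15.79 and 15.78 to 15.85. The part of these markers in the levels of the members was not tested.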

How the data were processed

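The comparison used 10 arrays, 1 per sample, and set 5 allogeneic against 5 syngeneic samples. For 45101 probe sets, a linear intensity on every array was deposited. The summarisation and scaling by the authors before that are unknown here. Deposited intensity ran from 0.74 to 22385, and the lower quartile was higher on allogeneic arrays 1, 3 and 4 (18.7 to 19.5) than on the other 7 (13.8 to 14.4). They were then log2 transformed and quantile normalized. Names came from the array's annotation, and 34754 symbols were brought up to date through gene identifiers. There were 34945 with 1 symbol, 932 with several and 9160 with none. Control probe sets (64) were left out, except that Gapdh, which has no other probe set of its own, was represented by its 3' control. Ero1a counted as Ero1l.

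The comparison was fitted in limma (lmFit, eBayes) over 18194 genes, with Benjamini-Hochberg adjustment over all genes, and every adjusted p comes from limma. The background limit of each array was the 95th percentile of 27 bacterial probe sets. "At least" folds set the brighter group's mean against the higher of limit and own value in the dimmer group. Levels of different probe sets were compared to pick the brightest of a gene or marker list, and marker levels were summed. Apart from that, no probe's level was set against another's. All members could be named, and values by array were given for the 4 members with the smallest p per role and those with an animal far from its group. Pathway genes that passed, and up to 4 more per list, were also eligible. Named outside that rule, after their values were seen, were the values by animal of Gapdh, Aldoc, Pfkm, Ndrg1, Hk1, Slc16a3 and a Pdk1 probe set, and the genes Mpeg1, Hif1a, Arnt, Vhl and Pkm. The members and lists were chosen with earlier results of these data known. R 4.3.3 and limma 3.58.1 were used, and the fit was tested on simulated data.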

Additional observations from a re-analysis of the deposited data

Results flagged for a closer look

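In 66 groups of 5 animals, 4 members had an animal far from the rest of its group, where chance would give about 1 in 20. Tpi1 read 12.43 in allogeneic animal 1, where the others had 12.71 to 12.80 on the log2 scale. For Mif the same animal read 12.98 and the others 13.19 to 13.26. Slc2a3 read 10.89 in allogeneic animal 3, where the rest of the group had 11.33 to 11.48. Pdk1 read 11.37 in syngeneic animal 2, the others 11.57 to 11.64.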

How the results depend on the processing

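The count of 0 called members of 33 held without quantile normalization, with the mean of all probe sets, with probe sets of several symbols allowed, with the lower 25% of genes left out (31 members), with an offset of 16, with trend and robust eBayes, and without any 1 animal (0 members each time). With arrays of raised low end left out it was 2 members, Ldhb and Eno2 (2 of 14 glycolytic enzymes), where 3.57% of all genes passed. Eno2 was below background, and that setting kept 2 allogeneic animals. Over probe sets fitted singly, a setting added after the data were seen, 0 to 1 passed without 1 animal. No sign turned with the offset, the trend or the block.

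Without quantile normalization the difference was -0.057 for Aldoa, -0.038 for Pgk1, -0.016 for Pgam1 and -0.050 for Mif, each of opposite sign to the value reported. The median difference of all genes rose by 0.04 there, while that of the members went from 0.01 to -0.05. With the mean of all probe sets the difference was -0.078 for Hk1, 0.046 for Pfkl and 0.081 for Pfkfb3. Hk1 had -0.021 with probe sets of several symbols. With arrays of raised low end left out it was 0.11 for Pfkl, 0.53 for Pfkm, 0.44 for Aldoc, 0.025 for Ldha and 0.40 for Pfkfb4. The cause of these turns was not tested.

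Without 1 animal, the members whose sign turned ran from -0.15 to 0.16 (Pfkl), -0.19 to 0.23 (Pfkm), -0.041 to 0.079 (Aldoa), -0.64 to 0.093 (Slc16a3), -0.065 to 0.14 (Ankrd37), -0.027 to 0.63 (P4ha2), -0.0079 to 0.28 (Ndrg1), -0.0016 to 0.069 (Mif) and -0.046 to 0.27 (Car9). Without a turn of sign, Hk1 ran from 0.030 to 0.36, Hk2 from -0.35 to -0.089, Aldoc from -0.998 to -0.14 and Pfkfb4 from -0.53 to -0.042.

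Whether replicate numbers pair the samples is not said in the labels. Same-numbered samples correlated at -0.08 to 0.07 and 2 of 5 correlated best with their own number. With the replicate block 0 of 33 members and 14 of all genes passed. Signal near background limits Slc16a3, Pfkfb4, Eno2 and P4ha2.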

Other observations

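Syngeneic animal 3 had the highest Egln3 of the 10 samples, at 8.34 on the log2 scale against 5.60 to 6.40 in the other syngeneic animals. It also had the highest value of its group for 14 of the 33 members (42.4%), as it did for 18.6% of all genes. Among the 11 other HIF targets there were 6, namely Vegfa, Bnip3, Ankrd37, Ero1l, P4ha1 and Mif, and its median deviation over those 11 genes was 0.19, the highest of the 10 animals, where the other 9 ran from -0.20 to 0.08. Ndrg1, also among the 11, was lowest of its group in this animal. Over the 21 further HIF targets the median deviation of this animal was -0.02, where syngeneic animals ran from -0.02 to 0.11. These values were noticed after the data were seen and come from a single animal.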
